A study of Mus musculus with 4 samples.

Results

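The 41 genes described here encode junction and polarity proteins of epithelia: 15 claudins, 7 other tight junction proteins, 3 connexins, 7 catenins and desmosomal proteins and 9 polarity proteins. They were looked up by symbol in a list of 15824 NFIC peaks from mouse pancreas, in which each peak is assigned to the gene with the nearest transcription start site (TSS). At least 1 peak was assigned to 27 of the 41 genes, and these genes held 67 peaks. NFIC is a nuclear factor I (NFI) transcription factor, and the study mapped where it sits on chromatin in the normal pancreas. Chromatin came from the pancreas of wild-type mice of 8 to 12 weeks, with the strain given as Mixed, and was precipitated with an NFIC antibody (Bethyl, A303-123A) in 3 libraries. The only control was 1 library of input DNA, taken without antibody, from the same kind of tissue. The whole organ was used, so acinar, duct, islet and stromal nuclei were pooled, and a peak does not tell in which of them NFIC was bound. All 7 acinar marker genes looked up (*Cpa1*, *Cela1*, *Cela2a*, *Ptf1a*, *Rbpjl*, *Bhlha15*, *Nr5a2*) had a peak, while 0 of 5 islet hormone genes had one, which for 5 genes leaves a share of up to 43.4%.

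Epithelial cells are sealed to each other near their apical side by tight junctions, in which claudins form the barrier and its ion-selective pores, occludin and its relatives are further membrane components, and cytoplasmic scaffolds tie both to actin. Below them, catenins link cadherins to actin in adherens junctions, and plakoglobin, plakophilins and desmoplakin link desmosomal cadherins to keratin. Gap junctions, made of connexins, let small molecules pass between cells, and acinar cells of the pancreas are strongly coupled through them. The PAR complex and Crumbs mark the apical domain and Scribble, Dlg and Lgl the basolateral one, an arrangement on which secretion into the acinar lumen depends. NFI proteins bind as dimers to the palindrome TGGCNNNNNGCCA, in which N is any base. This full site, allowing 1 mismatch among the 8 fixed bases, was searched in a window of 200 bp at the centre of each peak. Being a palindrome, it reads the same on both strands.

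The exact site was found in 5 of the 67 peaks. They lay at *Cldn12*, *Llgl2*, *Cldn10*, *Pard6b* and *Cgn*, and are printed first, each with 8 bases on both sides. The next 6 are sites with 1 mismatch, from the peaks of highest score that hold one and from the *Marveld3* promoter. Sequences are 5′ to 3′ on the plus strand of GRCm38, the assembly that mm10 represents, and capitals mark the fixed bases that match the palindrome.
Cldn12, chr5:5514950-5514978: cgggccgcTGGCcgcggGCCAattcctga
Llgl2, chr11:115858087-115858115: cctcagtcTGGCctagtGCCAggctgacc
Cldn10, chr14:118839607-118839635: tggcccagTGGCccaggGCCAcaactgag
Pard6b, chr2:168095227-168095255: ctgcacccTGGCctgctGCCAgcgtgttt
Cgn, chr3:94789721-94789749: ctgaggccTGGCagaagGCCAagctcggc
Llgl2, chr11:115859761-115859789: gcgctggtTGGCcttgcGCCtggcctgtc
Llgl1, chr11:60707796-60707824: cttgattcTGGCtcaaaGCCctcctctcc
Cldn3, chr5:134992687-134992715: ccaagctaTGGCctcagGCCtgcctgccc
Pard6b, chr2:168107034-168107062: gccgggctgGGCagcagGCCAggcggcca
Tjp1, chr7:65461692-65461720: gagtaagcTGGggtcaaGCCAaaagttgc
Marveld3, chr8:109962161-109962189: agtttcccaGGCaggtgGCCAagctcaag

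Of the 41 genes, 65.9% had a peak (95% Wilson interval 50.5 to 78.4%), against 35.9% of the 21774 protein-coding genes of the annotation. The list is a merge of the 3 libraries and holds no value for any of them, so neither the depth nor the spread of replicates is known, and intervals cover counting error only. The background takes in genes of all tissues, and whether expression in the pancreas moves with these shares was not tested. Of 74 further genes of the same structures, such as other claudins, connexins, nectins and cadherins, 34 had a peak, or 45.9% (35.1 to 57.2%). That interval overlaps the one of the 41 and also includes the 35.9% of all protein-coding genes. A peak from -1000 to 100 bp of the TSS was assigned to 11 of the 41 genes, or 26.8% (15.7 to 41.9%), against 13.1% of all protein-coding genes. Of the 74 further genes 12 had one, or 16.2%, with an interval (9.53 to 26.2%) that includes the 13.1%. The median score of their 63 peaks was 6.17, against 6.57 for all peaks. When only the 1000 bp upstream of the TSS were taken, 5 genes remained, *Cldn3*, *Cldn8*, *Marveld3*, *Ctnnd1* and *Pard3*, which is 12.2% (5.32 to 25.5%) against 10.3%. The other 6 peaks were centred 26 to 66 bp downstream of the TSS, at *Cldn12*, *Marveld2*, *Jup*, *Pkp2*, *Dsp* and *Prkcz*.

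**Figure D1:**
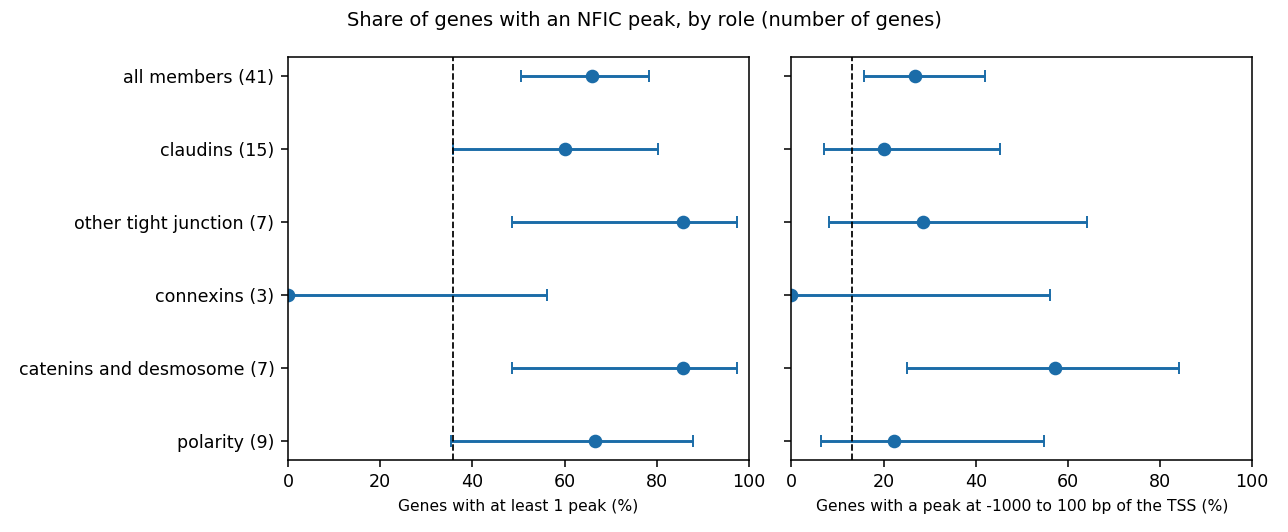
Share of genes with any NFIC peak (left) and with a peak from -1000 to 100 bp of the TSS (right), in percent, for the 41 genes and each role, with the number of genes in brackets. Points are shares, bars 95% Wilson intervals, and dashed lines the shares of all protein-coding genes (35.9% and 13.1%); the interval for all 41 genes lies above the line in both panels, and the connexins are at 0.

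Bound genes often held several peaks. Of the 27, 18 had 2 or more, against 38.8% of all bound protein-coding genes, and the most were assigned to *Pard6b* with 7, *Pard3* with 6, *Cldn10* and *Jup* with 5, and *Cldn3*, *Tjp1* and *Llgl2* with 4. The share of genes with any peak was set beside the length of the gene. The number of peaks per gene was not, and whether it moves with length was not tested. Across all protein-coding genes the share with a peak was 18.1% in the quartile of shortest span (up to 5.71 kb), 33.4% and 40.4% in the next ones and 51.5% in that of the longest span (over 44.5 kb). For the junction genes, a peak was assigned to 7 of 9 in the quartile of shortest span, all 7 of them claudins, to 3 of 9 and 6 of 10 in the middle ones, and to 11 of 13 in that of the longest span.

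**Figure D2:**
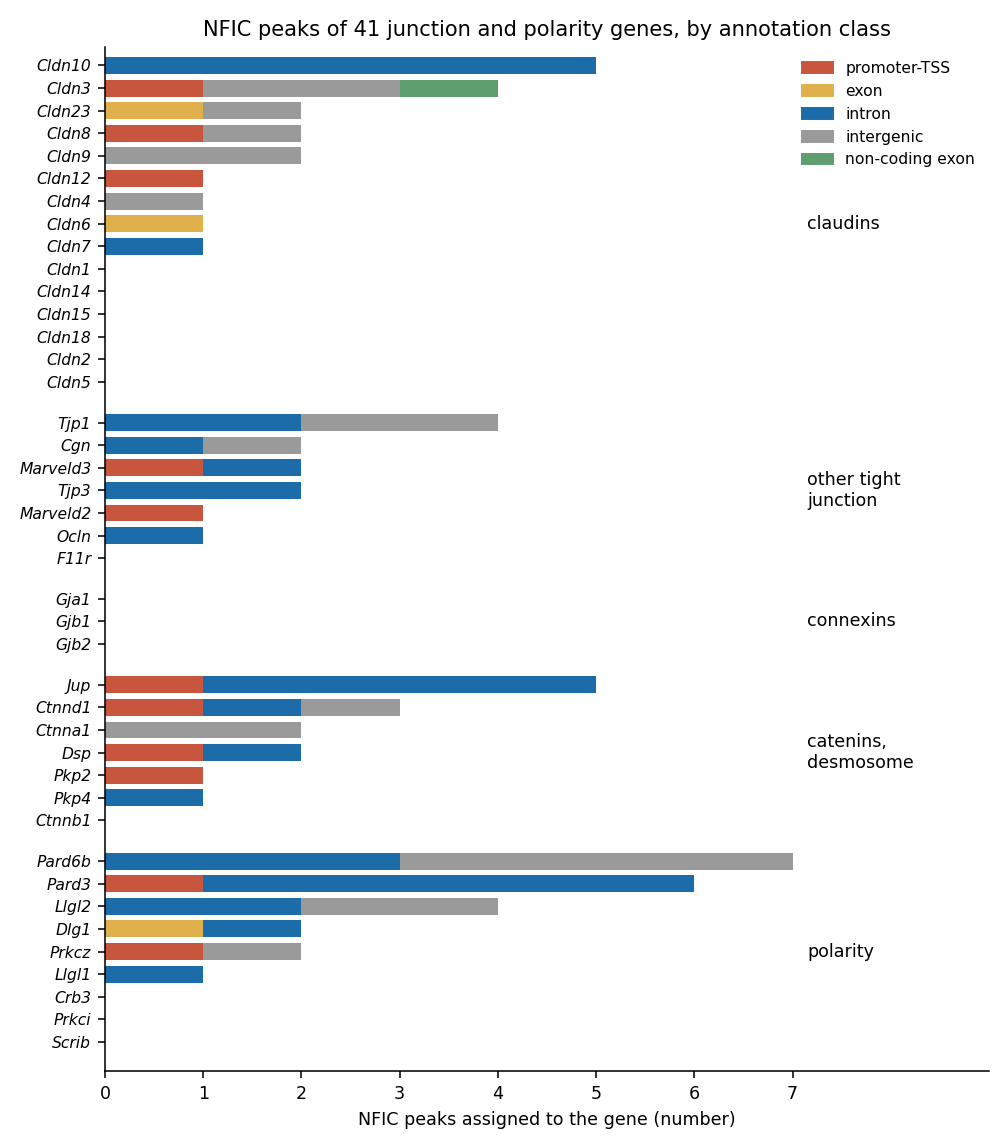
Number of NFIC peaks assigned to each of the 41 genes, grouped by role and coloured by the class of genomic element in the deposited annotation. Bars run from 0 for the 14 genes with no peak to 7 for *Pard6b*; all 5 peaks of *Cldn10* are intronic, and 11 genes have a promoter-TSS peak.

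Among the claudins, 9 of 15 had a peak (60%, 35.7 to 80.2%), with 19 peaks and a median score of 5.98. The peak score ranks peaks within the list, on a scale that the sources used here do not name. Over all 15824 peaks it ran from 3.39 to 68.1 with a median of 6.57. *Cldn12*, an atypical claudin whose tail lacks the usual motif for binding scaffolds, held the highest of the 67 scores at 23.3, and 99.2% of all peaks in the list scored lower. This was its only peak, centred at 63 bp in the 5′ UTR of the annotated transcript (chr5:5514827-5514999), and it contains the exact site 51 bp from the centre. Another *Cldn12* transcript starts close by, so that the same peak lies at -64 bp of that start.

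*Cldn3*, a sealing claudin of simple epithelia, had 4 peaks: intergenic ones at -19.5 kb with a score of 4.98 and at -11.9 kb with 6.77, a promoter peak at -105 bp with 8.96, and 1 at 6.54 kb with 14.9. The last, the highest of the 4, lies beyond the end of the short *Cldn3* gene (chr5:134986214-134987476) in an exon of the non-coding gene *Wbscr25*. The promoter peak had no full site, while the peaks at -11.9 and 6.54 kb each had one with 1 mismatch. *Cldn4*, its close relative and neighbour on chromosome 5, had a single peak at -12.3 kb, with a score of 3.59, the lowest of the 67.

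*Cldn8*, a barrier-forming claudin known from the kidney, had its higher peak at -93 bp (score 11.2) and another at 11.4 kb (5.98). The promoter peak, chr16:88563190-88563362 on mm10, lies wholly upstream of the gene, which is on the minus strand, and holds no full site. It is printed because it is the highest of the peaks within 1000 bp upstream of a TSS. Capitals mark CAGNTG on either strand, a form of the E-box that basic helix-loop-helix factors bind, and no match was found in it to the single NFI arm TTGGCA or its reverse complement.
Cldn8 promoter peak, plus strand: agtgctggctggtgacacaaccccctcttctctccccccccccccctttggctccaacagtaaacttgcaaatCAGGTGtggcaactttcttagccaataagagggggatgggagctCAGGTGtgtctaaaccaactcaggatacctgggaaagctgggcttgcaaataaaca

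*Cldn10*, which makes ion-pore isoforms from alternative first exons, had 5 peaks, all in an intron of the gene. Their deposited distances, each to the nearest of its start sites, were -27.6, -15.3, -6.13, -4.09 and 32.4 kb, with scores of 5.98, 7.17, 7.37, 5.78 and 5.78. The highest of the 5 is at -6.13 kb, and the exact site shown above is in the peak at -15.3 kb. Of the other claudins, *Cldn6* had a peak in its coding exon at 1.92 kb (score 10.2), *Cldn7* in an intron at 1.27 kb (5.18), and *Cldn23* in its only exon at 1.01 kb (4.18) and at 40.7 kb (8.37). The *Cldn23* peak at 40.7 kb lies in a coding exon of another gene, *Gm19410*. *Cldn9*, next to *Cldn6* on chromosome 17, had peaks at -16.2 and -15.4 kb with scores of 5.78 and 5.98, 816 bp apart. No peak was assigned to *Cldn1*, *Cldn2*, *Cldn5*, *Cldn14*, *Cldn15* or *Cldn18*, a set that includes the cation pores of *Cldn2* and *Cldn15* and the endothelial *Cldn5*. The nearest peak of any gene was far off, from 47.5 kb at *Cldn18* to -210 kb at *Cldn1*. *Cldn2* is on chromosome X, where 10.7% of protein-coding genes had a peak.

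The other tight junction genes had a peak in 6 of 7 cases (85.7%, 48.7 to 97.4%), with 12 peaks and a median score of 7.87, the highest of the roles. *Tjp1* and *Tjp3* encode zonula occludens scaffolds. *Tjp1* had 4 peaks, intergenic ones in the authors' annotation at -98.5 kb (score 6.97) and -90.4 kb (12.1) and intronic ones at 11.3 kb (10.8) and 13.6 kb (7.77). All 4 scored above the median of the list. In the annotation used here, the *Tjp1* gene runs far enough upstream to hold all of them, and also 2 weaker peaks with scores of 4.78 and 4.58 that the authors' list assigns to *BC046251*. *Tjp3* had a pair of peaks in its first intron, at 389 bp (7.97) and 1.33 kb (8.96), each with a full site at 1 mismatch.

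The MARVEL proteins are occludin, tricellulin (*Marveld2*), which seals the corners where cells meet, and *Marveld3*. *Ocln* had 1 peak in its first intron, at 1.03 kb with a score of 9.16 and a site 8 bp upstream of the peak centre on the genome (offset -8 bp). *Marveld3* had a promoter peak at -49 bp (6.77) and an intronic one at 4.35 kb (7.37), and was the only one of the 5 genes with a peak in the 1000 bp upstream of the TSS in which that peak holds a full site. *Marveld2*, adjacent to *Ocln* on chromosome 13, had a single peak at 57 bp with a score of 3.78, and only 2.47% of the list scored lower. *Cgn*, which encodes the junctional plaque protein cingulin, had peaks at -3.18 kb (5.58) and at 5.07 kb in its first intron (8.17), of which only the weaker upstream one holds the exact site. *F11r*, the junctional adhesion molecule JAM-A, had none, and the nearest peak, at -14.7 kb with a score of 8.17, is assigned to *Tstd1*.

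None of the 3 connexin genes had a peak, which for 3 genes leaves a share of up to 56.1%. *Gjb1* and *Gjb2* encode the connexins known from acinar gap junctions, and *Gja1* the most widespread connexin. *Gjb1* is on chromosome X, and its nearest peak lay 35.5 kb away with a score of 4.58. For *Gjb2* it lay at -56.8 kb, with a score of 13.3, and is assigned to the neighbouring connexin gene *Gjb6*. *Gja1* stood farthest from any peak of all 41 genes, at 1418 kb.

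Of the catenin and desmosome genes, 6 of 7 had a peak (85.7%, 48.7 to 97.4%), with 14 peaks and a median score of 6.27. A peak from -1000 to 100 bp of the TSS was found at 4 of the 7, *Ctnnd1*, *Jup*, *Pkp2* and *Dsp* (57.1%, 25 to 84.2%), against 13.1% of all protein-coding genes. In the 1000 bp upstream of the TSS alone, only *Ctnnd1* had one (14.3%, 2.57 to 51.3%), against 10.3%. *Jup* encodes plakoglobin, the catenin shared by adherens junctions and desmosomes, and had 5 peaks: at 26 bp (score 8.56), 2.3 kb (8.76), 6.53 kb (12.7), 9.02 kb (8.17) and 18.3 kb (5.78). The first is at the 5′ UTR, and the 3 that follow, the highest among them, are in the first intron. The peak at 26 bp also lies within 1 kb of a TSS of another gene, *Gm12348*. The highest *Jup* peak had no full site, which was found only in the peaks at 9.02 and 18.3 kb.

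*Ctnnd1*, the catenin that stabilizes cadherins at the membrane, had peaks at -68 bp (5.38), 13.6 kb (8.96) and 50 kb (6.37), of which the middle one, in an intron, holds a full site. *Ctnna1*, which couples the cadherin complex to actin, had a pair of intergenic peaks at -25.5 kb (6.17) and -24.9 kb (9.36), 605 bp apart. *Pkp2*, a plakophilin of the desmosomal plaque, had a peak at 46 bp (5.38), *Dsp*, which encodes desmoplakin, at 57 bp (5.78) and 13.8 kb (5.98), and *Pkp4*, a relative of plakophilins, at 900 bp (5.38). These 4 peaks scored below the median of the list and held no full site. The *Pkp4* peak lies at -119 bp of another *Pkp4* transcript start. A peak assigned to *Ccdc148* (5.58) lies at -888 bp of the start to which the 900 bp refers. *Ctnnb1*, which encodes beta-catenin, is counted as without a peak, but a peak with a score of 6.37 lies in one of its introns (chr9:120958708-120958880, 25.2 kb from its TSS) and contains the exact site. The list assigns it to the microRNA gene *Mir7090*, whose TSS is nearer.

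Of the 9 polarity genes, 6 had a peak (66.7%, 35.4 to 87.9%), and with 22 peaks and a median score of 7.37 they held the most peaks of any role. *Pard6b* encodes the PAR6 adaptor of the apical PAR complex and had 7 peaks, a number reached by 1.49% of all bound protein-coding genes. They lay at -35.1 kb (score 7.77), 5.14 kb (10.8), 10.8 kb (7.57), 14.2 kb (7.37), 23.9 kb (7.37), 26 kb (13.3) and 34.2 kb (4.58). The 3 peaks from 5.14 to 14.2 kb are in its introns and the 3 farthest downstream lie beyond its end. The peak at -35.1 kb lies within the span of another gene, *Ripor3*. Of the 7 peaks, 6 scored above the median of the list. Full sites were found in the peaks at 10.8, 14.2 and 26 kb. *Pard3*, the scaffold of the same complex, had 6 peaks along its long gene, at -42 bp (5.18) and in introns at 75.3 kb (6.37), 82.8 kb (5.78), -115 kb (6.97), 140 kb (4.98) and 142 kb (7.77), the distances of the last 3 being to start sites inside the gene. None of the 6 held a full site, and none reached the highest quartile of scores.

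The atypical protein kinase C of the PAR complex is encoded by *Prkcz* and *Prkci*. *Prkcz* had peaks at 66 bp (6.37) and -9.55 kb (4.78), the first with a site at 1 mismatch, and *Prkci* had none. The basolateral Lgl proteins had the high scores of this group. *Llgl1* had 1 peak, in intron 11 of 20 at 8.11 kb, with a score of 15.5, and its site is 7 bp from the centre. *Llgl2* had 4, at 15 kb (7.37) and 20 kb (14.3) in its introns, and at 34 kb (14.3) and 35.7 kb (18.7) beyond its end. The last of these is the second highest of the 67, but lies in a coding exon of the next gene, *Myo15b*, and the peak at 34 kb is in the 5′ UTR of *Myo15b*, within 1 kb of its start, so which of the genes these peaks belong to cannot be told apart from the list. The peaks at 7.37 and 14.3 in the *Llgl2* introns do not have this overlap.

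The *Llgl1* peak and the higher intronic *Llgl2* peak had scores close to each other and different NFI sequences, for which both are printed whole, from the plus strand. In the first, capitals mark the fixed bases of the full site that match. The second holds no full site, and capitals mark the single arm TTGGCA, here as its reverse complement TGCCAA, and CAGNTG on either strand.
Llgl1 intron, chr11:60707717-60707889: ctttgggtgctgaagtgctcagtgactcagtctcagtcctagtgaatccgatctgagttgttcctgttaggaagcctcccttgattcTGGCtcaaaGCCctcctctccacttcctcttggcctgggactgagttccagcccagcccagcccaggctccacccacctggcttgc
Llgl2 intron, chr11:115843988-115844160: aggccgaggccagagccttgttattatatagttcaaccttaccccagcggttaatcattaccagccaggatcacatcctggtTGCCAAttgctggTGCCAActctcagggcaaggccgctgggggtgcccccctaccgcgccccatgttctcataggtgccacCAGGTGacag

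*Dlg1* had low-scoring peaks at -13.9 kb (5.58) in an intron and -11.4 kb (4.58) in an exon, and a further peak in an intron of the gene, with a score of 6.77, is assigned to *Meltf*. The apical determinant *Crb3* and the basolateral *Scrib* had no peak. For *Crb3* the nearest peak, at -3.19 kb with a score of 9.56, is assigned to *Slc25a23*, and for *Scrib* one with a score of 15.9, at -21.8 kb, is assigned to *Nrbp2*.

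**Figure D3:**
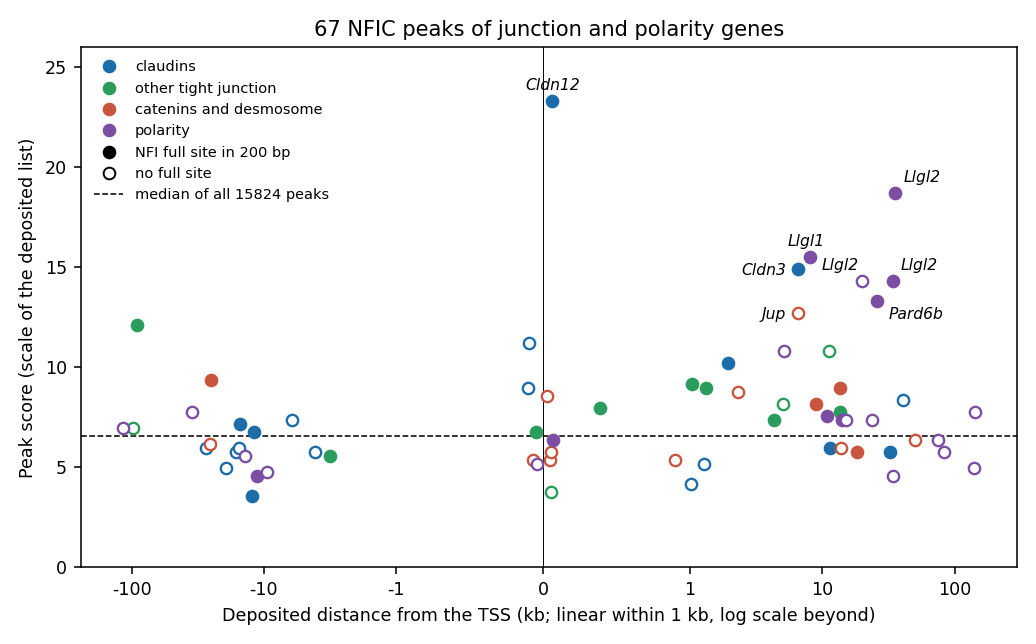
Peak score (vertical axis, scale of the deposited list) against deposited distance from the TSS (horizontal axis, kb, linear within 1 kb and logarithmic beyond) for the 67 peaks, coloured by role. Filled points hold an NFI full site, open points do not, the dashed line is the median of all peaks (6.57) and the 8 highest peaks are named; 7 of these 8 lie 6.53 kb or more downstream of the TSS, and *Cldn12* alone is at the TSS.

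Of the 10 highest peaks, those of *Cldn12* and *Cldn8* were within 100 bp of the TSS. The 11 peaks of the promoter-TSS class had a median score of 6.37 and the 56 others 7.37. Of the 18 genes with several peaks, the nearest to the TSS was also the highest in 4. Across the 67 peaks, 47.8% were intronic (36.3 to 59.5%) against 40.8% of all peaks, 29.9% intergenic (20.2 to 41.7%) against 30.6%, and 16.4% in the promoter-TSS class (9.42 to 27.1%) against 20.7%. The centre lay inside the span of the peak's own gene for 46 peaks, or 68.7% (56.8 to 78.5%), against 47.1% of all peaks.

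The median score of the 67 peaks was 7.17, with quartiles of 5.78 and 8.96, against 6.57, 4.98 and 9.16 for all peaks. The 95% interval of the median of the 67, from exact order statistics, was 6.17 to 7.77 and includes the median of all peaks. Scores under 10 took only 34 different values, spaced by about 0.199, so the medians were 3 such steps apart. Of the 67 peaks, 6 (8.96%, 4.17 to 18.2%) were in the lowest quartile of scores, against 23.6% of all peaks (tied scores make the quartiles unequal). The highest quartile held 15 (22.4%, 14.1 to 33.7%), against 25.5%. Counted by gene, 11 of the 41 had a peak in the highest quartile (26.8%, 15.7 to 41.9%), against 12.1% of protein-coding genes. They were *Cldn3*, *Cldn6*, *Cldn8*, *Cldn12*, *Ocln*, *Tjp1*, *Ctnna1*, *Jup*, *Pard6b*, *Llgl1* and *Llgl2*.

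**Figure D4:**
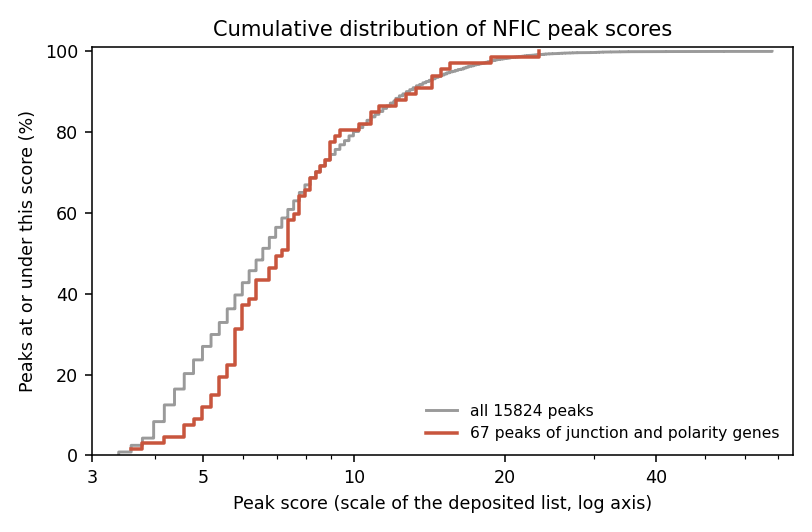
Cumulative share of peaks (vertical axis, percent) at or under each peak score (horizontal axis, log scale) for the 67 peaks of junction and polarity genes and for all 15824 peaks. The curve of the 67 lies below that of all peaks at low scores, where 8.96% against 23.6% fall in the lowest quartile. It lies above at the start of the highest quartile, which holds 22.4% against 25.5%. The 67 end at a score of 23.3 and all peaks at 68.1.

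The full NFI site was found in 28 of the 67 peaks, or 41.8% (30.7 to 53.7%), against 51.8% of all peaks and 11.2% of 21263 promoter windows of the same length, taken upstream of RefSeq start sites. The exact site was found in 5 (7.46%, 3.23 to 16.3%), against 13.4% of peaks and 0.597% of promoter windows. By role the full site, allowing 1 mismatch, was present in 8 of 12 peaks of the other tight junction genes and 8 of 19 of the claudins. It was present in 8 of 22 peaks of the polarity genes and 4 of 14 of the catenin and desmosome genes. Promoter-TSS peaks held it in 3 of 11 cases (27.3%, 9.75 to 56.6%), against 35.9% of all promoter-TSS peaks, and the other peaks in 25 of 56 (44.6%, 32.4 to 57.6%), against 56%. The G+C content had a median of 68.5% in the 11 promoter-TSS windows and 54.5% in the others. The absence of a match says only that these letters are not in the window.

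Peaks with the site had a median score of 7.87 and those without 6.17, with quartiles of 6.67 and 10.7 against 5.38 and 7.97, so the groups overlap widely. Over all peaks the medians were 7.17 and 5.98. Of the 10 highest peaks 7 held a site, the exceptions being the *Llgl2* peak at 20 kb, the *Jup* peak at 6.53 kb and the *Cldn8* promoter. All the peaks of 8 bound genes lacked it: *Cldn7*, *Cldn9*, *Cldn23*, *Marveld2*, *Pkp2*, *Pkp4*, *Dsp* and *Pard3*. The site lay a median of 37 bp from the centre of the peak, against 24 bp over all peaks with a site, and within 25 bp in 12 of 28 cases (42.9%), against 52%.

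Letters of other factors, and the single NFI arm, were searched in the same windows on both strands, by exact match. CAGNTG was present in 47 of the 67 windows (70.1%, 58.3 to 79.8%), against 53.9% of all peaks and 35.1% of promoter windows. In each role with peaks the share was above that of all peaks, from 12 of 19 for the claudins (41 to 80.9%) to 10 of 12 for the other tight junction genes (55.2 to 95.3%). The intervals of the claudins, the catenin and desmosome genes (45.4 to 88.3%) and the polarity genes (47.3 to 83.6%) include the 53.9%. Both CAGNTG and the NFI site were held by 19 peaks (28.4%, against 29.1% of all peaks). All *Pard3* peaks but the one at its promoter held CAGNTG, as did 6 of 7 *Pard6b* peaks. CAAGGNCA, the letters bound by NR5A2, was present in 9 peaks (13.4%, 7.23 to 23.6%, against 8.95% of all peaks and 3.64% of promoter windows), among them the highest *Cldn3* and *Llgl2* peaks. TGTTTAC, of forkhead factors, was present in 5 (7.46%, 3.23 to 16.3%, against 3.99% and 2.04%), GATAAG in 4 (5.97%, 2.35 to 14.4%, against 7.74% and 4.84%) and GGGCGG, the GC box, in 12 (17.9%, 10.6 to 28.7%, against 21.1% and 40.8%). The single NFI arm TTGGCA was present in 18 (26.9%, 17.7 to 38.5%, against 33.7% and 8.76%), and can lie within a full site. These are matches of letters, not measured binding of those factors.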

How the data were processed

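NFIC ChIP-Seq libraries of mouse pancreas (3) and input DNA (1) were analysed from 1 merged peak list that the authors deposited. The submitters' processing notes name BWA, Picard, MACS2 and mm10, and the header of the list names HOMER annotatePeaks. The paper's methods also describe joining replicates with HOMER, but in a passage about downloaded data. Versions and thresholds are not given in the sources used here. The deposited peak score ranks peaks on a scale that is not named, and the deposited focus ratio gives the fraction of a peak's tags near its centre (median of 0.694 for the 67 peaks, 0.684 for all). The list has 0 columns of values per sample, so depth and replicate spread are unknown and no test was run. Genes were matched by symbol, and the distances and classes are those of the authors. They were checked against a RefSeq copy of GRCm38, in which 62 of the 67 distances to the TSS were equal within 1 bp. Shares have 95% Wilson intervals (SciPy 1.17.1), and peaks and genes are not replicates. Motifs were searched as fixed letters in 200 bp windows (samtools 1.23.1), and the search, tested on simulated data, found 100% of 500 planted exact NFI sites. This checks the code only, and no sites with 1 mismatch were planted. Every gene with a peak is named. Those with a peak in the 1000 bp upstream of the TSS, the 5 with the most peaks and those of the 5 highest scores, ties kept, are given in full. The genes and lists were chosen with earlier results of these data known.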

Additional observations from a re-analysis of the deposited data

How the results depend on the processing

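Alternatives varied the score quartiles kept, the distance limit, the promoter window, the annotation, the merging of peaks and the motif search, and 12 of 22 left the value within its interval or, for counts, within 1.5 times. Of the 41 genes, 11 had a peak in the highest quartile of score (12.1% of protein-coding genes). With the upper 2 quartiles the peaks numbered 38 (56.7%, against 51.6% of all peaks) and the genes with a promoter peak 3 (against 5.37% of protein-coding genes). With promoter windows of -1000 to 100 bp and -1000 to 1000 bp, these genes were 11 and 13, against 13.1% and 17.5%. With the 1000 bp upstream of every RefSeq transcript start they were 7, against 12.6%. The median score was 8.37 over the highest peak of each gene, against 7.17 for all bound protein-coding genes. This comparison takes no account of the number of peaks per gene, on which a highest score depends. Of the 27 bound genes 18 had 2 or more, against 38.8% of all bound protein-coding genes. The share of peaks with the NFI site was 7.46% without a mismatch, 23.9% in 100 bp windows, 26.9% for the single arm and 55.3% in the upper 2 quartiles, against 13.4%, 39.4%, 33.7% and 59.5% of all peaks. Counting any peak within 5 kb of a gene's span, 28 genes had one, against 38.5% of protein-coding genes. No paired analysis was possible because the merged list holds no values per sample. Library depth, replicate spread and the binding in each cell type of the pancreas are limits that these data do not resolve.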
